A study of Mus musculus with 10 samples.

Results

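Microglia with a high content of MHC class II transcripts were selected on measured values, as the cells in which *H2-Aa*, *H2-Ab1*, *H2-Eb1* and *Cd74* together held at least 3 UMIs and at least 0.2% of the cell's UMIs. A UMI, or unique molecular identifier, stands for 1 captured transcript. Among the cells with at most 5% mitochondrial UMIs, at least 400 genes and at most 30000 UMIs, 112 of 19059 (0.588%) met this rule, in 7 of 10 libraries. They were set against the 16540 other cells with no UMI of *H2-Aa*, *H2-Ab1* or *H2-Eb1*, named chain-zero cells here, which were 86.8% of the cells. The values of the 4 genes chose the cells, so their levels are a description and were not tested. The label fits only part of the cells. Of the 112 cells, 36 (32.1%) held no UMI of any class II chain and met the rule through *Cd74* alone, which is why the cells are named class II/Cd74-high below.

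The cells were sorted as live, CD11B high and CD45 intermediate cells from C57BL/6 mice and sequenced as single cell 10x Genomics 3′ libraries, with 2 libraries in each of 5 groups. Adult microglia were isolated from the brain of mice aged 10 to 15 weeks. Slice microglia came from coronal brain slices of pups 1 to 4 days old, cultured on membrane inserts in a medium with horse serum for 1 day, 1 week or 3 weeks, and several slices were pooled where needed. *In vitro* microglia came from mixed glial cultures after 3 weeks. Human PDGF was added to the slice medium at each change, and no inflammatory stimulus was given to any group. No class II antibody was part of the sorting gate. Adult animals and cultured pup tissue differ in both age and culture, which cannot be told apart here.

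MHC class II molecules present peptides from engulfed material to CD4+ T cells. Each molecule pairs an α and a β chain: *H2-Aa* and *H2-Ab1* encode the chains of I-A, and *H2-Eb1* encodes the β chain of I-E, which C57BL/6 mice do not display because their I-E α gene is defective. *Cd74* encodes the invariant chain, which escorts new class II molecules to the endosome, where it is cut down and exchanged for peptide with the help of H2-DM. Microglia of the healthy brain carry little class II, while border macrophages, dendritic cells and B cells carry more. The coactivator CIITA switches the genes on together by binding to factors that sit on the X and Y boxes of their promoters.

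The genes of the chains lie next to each other on chromosome 17 (GRCm38), with *H2-Ab1* at chr17:34257689-34269419 on the plus strand, *H2-Aa* at chr17:34282744-34287823 on the minus strand and *H2-Eb1* at chr17:34305867-34316674 on the plus strand. The 250 bases before the annotated start of *H2-Aa* and *H2-Eb1*, outside the transcribed part of each gene, are shown because transcripts of these genes chose the cells. The sequences are from RefSeq (GRCm38.p6), at chr17:34287824-34288073 (minus strand) and chr17:34305617-34305866 (plus strand), 5′ to 3′ on the strand of the gene. Capitals mark GCAAC, a core of the X box, and CTGATTGG, the Y box, searched on both strands.
H2-Aa: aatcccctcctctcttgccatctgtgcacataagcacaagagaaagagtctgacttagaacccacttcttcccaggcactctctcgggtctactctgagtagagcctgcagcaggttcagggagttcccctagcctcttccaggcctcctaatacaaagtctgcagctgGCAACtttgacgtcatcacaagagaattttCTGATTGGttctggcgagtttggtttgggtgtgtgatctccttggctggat
H2-Eb1: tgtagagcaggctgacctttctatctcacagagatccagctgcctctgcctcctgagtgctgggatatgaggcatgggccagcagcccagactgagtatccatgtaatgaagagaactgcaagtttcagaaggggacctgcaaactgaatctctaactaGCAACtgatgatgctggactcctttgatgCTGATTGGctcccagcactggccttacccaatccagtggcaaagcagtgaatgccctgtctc
GCAAC began 81 bases before the start of *H2-Aa* and CTGATTGG began 51 bases before it. In *H2-Eb1* the same letters began 91 and 62 bases before the start. Over the windows of 27025 genes, CTGATTGG was found in 4.43%, GCAAC in 33.0% and both in 1.44%. A match of letters is a description and not a binding site.

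At the threshold of the rule, the share of class II/Cd74-high cells was highest in slice 1 day libraries and lowest in *in vitro* and slice 1 week libraries. This order depended on the threshold and on *Cd74*. At 1% of UMIs adult was above slice 1 day (0.122% against 0.0965%), as it was with the 3 chains alone (0.177% against 0.0965%), and at 0.1% slice 1 week (1.98%) was above adult (1.26%). It was 2.70% (14 of 518 cells, 95% exact binomial interval 1.49 to 4.49%) in slice 1 day replicate 1 and 2.17% (22 of 1014, 1.36 to 3.27%) in replicate 2. In adult it was 0.684% (26 of 3799, 0.448 to 1.00%) and 0.766% (27 of 3527, 0.505 to 1.11%). In slice 3 weeks it was 0.173% (2 of 1153, 0.0210 to 0.625%) in replicate 1 and 0.508% (19 of 3740, 0.306 to 0.792%) in replicate 2. *In vitro* replicate 1 held 2 such cells among 2417 (0.0827%, 0.0100 to 0.299%) and replicate 2 held 0 of 2682, which allows a share of up to 0.112% (3 counts of the total). Neither slice 1 week library held one, with 0 of 148 and 0 of 61 cells, which allow up to 2.03% and 4.92% by the same rule. The exact intervals of these 3 libraries, as plotted, end at 0.137%, 2.46% and 5.87%. Of the 148 cells, 24 had at least 2% neutrophil UMIs, and the study's own filter left fewer cells, so a share as in slice 3 weeks was not detectable at this number of cells. Intervals and limits cover counting error only. Slice 1 day had a mean of 2.44 ± 0.377% (SD, n = 2 libraries), adult of 0.725 ± 0.0574%, slice 3 weeks of 0.341 ± 0.237% and the *in vitro* group of 0.0414 ± 0.0585%. The slice 1 day libraries did not overlap with those of any other group that held such cells.

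**Figure D1:**
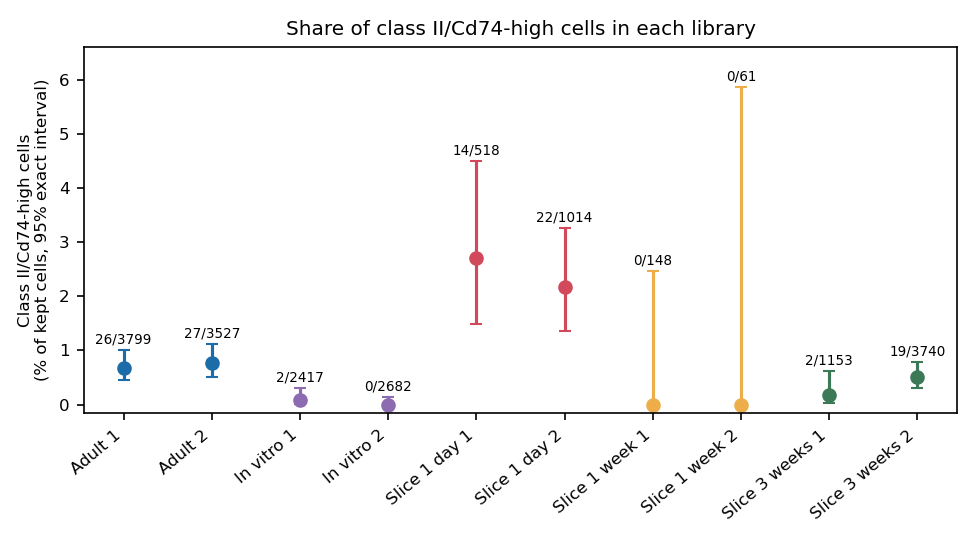
Share of class II/Cd74-high cells (% of the cells within the limits, y axis) in each of the 10 libraries, with bars for the 95% exact binomial interval. Slice 1 day libraries lie at 2.70% and 2.17%, adult libraries at 0.684% and 0.766%, and 3 libraries at 0.

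Sequencing depth per cell differed between libraries, and the lowest median, 1858 UMIs, was that of adult replicate 2 and the highest, 13966, that of the second *in vitro* library. After each cell was thinned to 1500 UMIs, slice 1 day had shares of 5.06% and 5.03%, adult of 0.966% and 1.16%, and slice 3 weeks of 0.607% and 1.31%. The slice 1 week shares were 0.709% and 0%, and the *in vitro* shares 0.290% and 0.0373%. With thinning, slice 1 day libraries had the highest shares and adult and slice 3 weeks libraries overlapped. Thinning left out 278 and 856 shallow cells of the adult libraries and at most 7 of any other library. In median UMIs the class II/Cd74-high cells were near the chain-zero cells of their library, with 3408 against 3229 in adult replicate 1, 1819 against 1853 in adult replicate 2, 8028 against 6239 and 8309 against 7962 in slice 1 day, and 4230 against 4777 in slice 3 weeks replicate 2.

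Transcripts of the α and β chains of I-A were not captured in the same ratio in every library. Over all kept cells *H2-Aa*, *H2-Ab1*, *H2-Eb1* and *Cd74* had 270, 562, 201 and 1588 UMIs in adult replicate 1, and 102, 221, 53 and 803 in adult replicate 2. *H2-Ab1* thus had 2.08 and 2.17 UMIs for each UMI of *H2-Aa* in adult. In slice 1 day the same genes had 91, 262, 74 and 1289 UMIs in replicate 1 and 17, 503, 16 and 2438 in replicate 2, and in slice 3 weeks 2, 295, 0 and 562 in replicate 1 and 32, 2689, 6 and 1165 in replicate 2. *H2-Ab1* per *H2-Aa* was 2.88 and 29.6 in slice 1 day and 84.0 in slice 3 weeks replicate 2, and replicate 1 held too few UMIs of *H2-Aa* for a ratio. The low ratios rested on the class II/Cd74-high cells, and in slice 1 day replicate 1 on 1 cell with 81 of 91 UMIs of *H2-Aa*. Over the cells that were not class II/Cd74-high, the ratio was 6.05 and 11.9 in adult, 19.9 and 28.8 in slice 1 day and 216 in slice 3 weeks replicate 2. In slice 1 week *H2-Ab1* had 53 and 10 UMIs while *H2-Aa* and *H2-Eb1* had none. *In vitro* libraries held 1072 and 512 UMIs of *Cd74* and at most 12 of any chain. UMIs of different genes can be captured with different efficiency, so only the change of the ratio between libraries is compared.

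**Figure D2:**
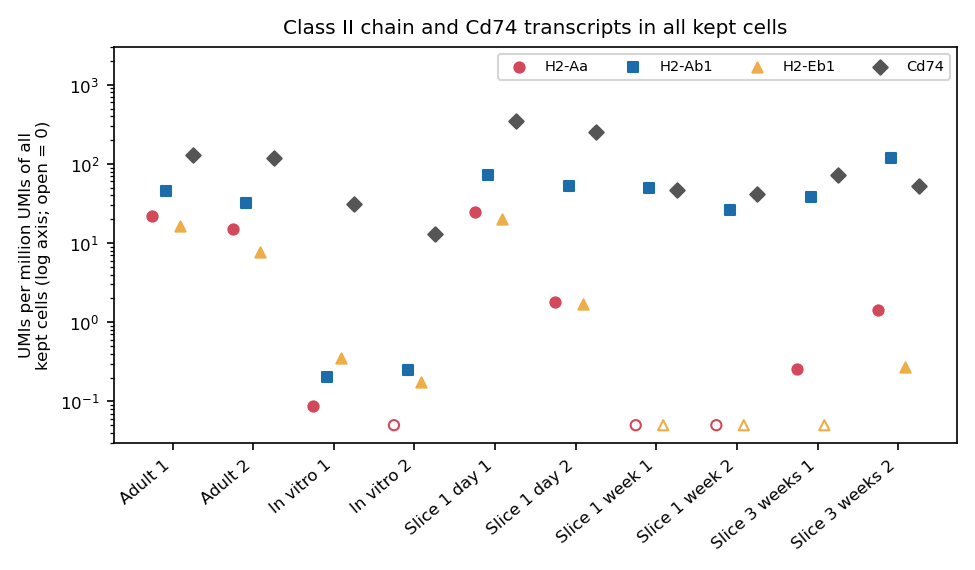
Level of *H2-Aa*, *H2-Ab1*, *H2-Eb1* and *Cd74* as CPM (UMIs scaled to a common library total) over all kept cells (y axis, log scale, open symbols for 0) in each library. *H2-Aa* and *H2-Eb1* lie nearer to *H2-Ab1* in adult than in slice 3 weeks, where *H2-Ab1* had 295 and 2689 UMIs and *H2-Aa* 2 and 32. In adult this rests on the class II/Cd74-high cells. Over the other adult cells *H2-Ab1* had 6.05 and 11.9 UMIs for each UMI of *H2-Aa*.

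Within the class II/Cd74-high cells of slice cultures, UMIs of *H2-Aa* and *H2-Eb1* lay in few cells. All 81 UMIs of *H2-Aa* and all 68 of *H2-Eb1* in the class II/Cd74-high cells of slice 1 day replicate 1 lay in 1 cell, and all 20 of *H2-Aa* in those of slice 3 weeks replicate 2 lay in another. In adult too, most of these UMIs lay in few cells. In adult replicate 1, 2 cells held 70 and 61 of the 229 UMIs of *H2-Aa*, and in adult replicate 2, 2 cells held 48 and 37 of 94. In adult replicate 1, 11 of 26 class II/Cd74-high cells held *H2-Aa* and 11 held *H2-Eb1*, and in adult replicate 2 these were 7 and 5 of 27. Over all 112 cells, 109 held *Cd74*, 72 held *H2-Ab1*, 22 held *H2-Aa*, 19 held *H2-Eb1* and 16 held all 4. The 3 cells without *Cd74* were all in slice 3 weeks replicate 2. The cells with *Cd74* but no chain were 19 of 27 in adult replicate 2 and 2 of 26 in adult replicate 1, 2 of 14 and 7 of 22 in slice 1 day, 4 of 19 in slice 3 weeks replicate 2, and 1 of 2 in both slice 3 weeks replicate 1 and *in vitro* replicate 1.

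In slice 1 day, *H2-Ab1* and *Cd74* were not confined to the class II/Cd74-high cells. There, 28.4% and 29.98% of the cells with under 2% of their UMIs from neutrophil genes held a UMI of *H2-Ab1* and 57.4% and 61.3% one of *Cd74*. Neutrophils, which carry little of these transcripts, give a measure of free RNA. The 67 and 110 cells of the same libraries with at least 2% of their UMIs from neutrophil genes held *H2-Ab1* in 1.49% and 7.27% and *Cd74* in 2.99% and 17.3%, at a median of 2247 and 4925 UMIs against 6955 and 8868 in the others. None of these cells was class II/Cd74-high. In slice 3 weeks replicate 2, 35.7% of cells held *H2-Ab1* and 0.348% held *H2-Aa*, with no such measure of free RNA in that library.

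Most of the 112 cells lay close to the threshold. The class II/Cd74 content was under 0.4% of UMIs in 77 cells and at least 1% in 11. Just inside the threshold, 32 cells held 0.2 to 0.25%, the nearest at 0.201%, and just outside it 64 cells with at least 3 UMIs held 0.15 to 0.2%, the nearest at 0.199%. Of the cells at 0.2% or more, 1 failed the minimum of 3 UMIs. The median content of the class II/Cd74-high cells was 0.355% and 0.363% in adult, 0.330% and 0.257% in slice 1 day and 0.290% in slice 3 weeks replicate 2. The 2 cells of *in vitro* replicate 1 held 60 UMIs of *Cd74* with 1 of *H2-Aa*, and 27 of *Cd74* with no chain.

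**Figure D3:**
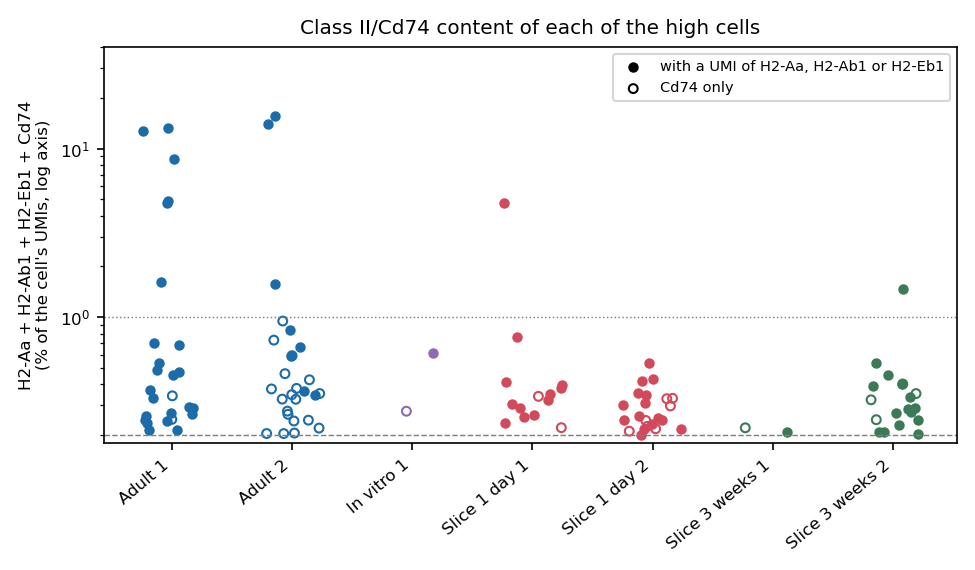
Class II/Cd74 content (% of the cell's UMIs, y axis, log scale) of each of the 112 class II/Cd74-high cells, by library. Most points lie between 0.2% and 0.4%, and the 8 cells at 4% or more are 7 adult cells and 1 cell of slice 1 day replicate 1.

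The 8 cells with at least 4% class II/Cd74 UMIs stood apart from the other class II/Cd74-high cells in further genes. In adult replicate 1 these were 5 cells at 13.2, 12.6, 8.68, 4.91 and 4.77%, and in adult replicate 2 they were 2 cells at 15.5 and 13.99%. *Lyz2*, which encodes a lysozyme of macrophages and monocytes, had 14021 CPM (UMIs scaled to the total of those cells) in the 5 cells of adult replicate 1, against 914 in the 20 cells under 1% and 402 in chain-zero cells. In adult replicate 2 the order was the same, with 44899, 1253 and 403. *Apoe*, a lipid carrier, had 75699, 2369 and 833 in adult replicate 1 and 31363, 1169 and 707 in replicate 2. *Ccr2*, the chemokine receptor of monocytes, had 551, 12.03 and 2.22 in replicate 1 and 2971, 0 and 2.61 in replicate 2, where 12.03 rests on 1 UMI. *Pf4* and *Mrc1*, genes of border macrophages, had 630 and 394 in the 5 cells of replicate 1 and 0 and 0 in the cells under 1%. These were 8 and 5 UMIs, in 3 cells each, and the 2 cells of replicate 2 held 1 UMI of each gene. Other markers did not all follow. In the 5 cells *Ms4a7* had 4 UMIs, *F13a1* had 1, and *Lyve1*, *Cd163* and the monocyte gene *Plac8* had 0. The microglia gene *P2ry12*, an ADP receptor, ran the other way, with 788, 3945 and 7232 in replicate 1 and 660, 5908 and 8521 in replicate 2, and *Selplg*, a ligand of selectins, with 473, 3801 and 5384 in replicate 1. Other microglia genes did not all follow: in replicate 1 *Fcrls* had 2284, 2033 and 3176 and *Cx3cr1* had 1575, 1696 and 2513. In the 2 cells of replicate 2, *P2ry12* rests on 2 UMIs, under the floor of 3. The adult cells under 1% thus lay between the cells at 4% or more and the chain-zero cells in *Lyz2* and *Apoe* in both libraries, and in *P2ry12* and *Selplg* in replicate 1.

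The cell at 4.73% in slice 1 day replicate 1 was of another kind. It held 81 UMIs of *H2-Aa*, 28 of *H2-Ab1*, 68 of *H2-Eb1* and 214 of *Cd74*, together with 36 of *Ccr7* and 51 of *Fscn1*, which mark migratory dendritic cells, and 3 of *Ciita*. It held no UMI of the 7 microglia genes *P2ry12*, *Tmem119*, *Cx3cr1*, *Csf1r*, *Fcrls*, *Sall1* and *Siglech*. Over all 112 cells, 2 held none of these genes and 105 held at least 2 UMIs of them.

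Checked as sums over cells, the class carried genes of microglia, which does not settle the identity of single cells. The summed level of the 7 microglia genes was 13149 and 15445 CPM in the class II/Cd74-high cells of adult, against 21140 and 21597 in chain-zero cells. In slice 1 day it was 1773 and 1817 against 2711 and 2325, and in slice 3 weeks replicate 2 it was 2711 against 4788. All 7 genes were detected in the summed class II/Cd74-high cells of each of these 5 libraries. Single cells of slice 1 day held few UMIs of some of them. Among those under 1%, *P2ry12* was found in 3 of 13 cells in replicate 1 and 8 of 22 in replicate 2. Of the chain-zero cells, 169 of 381 and 288 of 716 held it. *Fcrls* was found in 8 and 20 of the cells under 1%. Border macrophage genes had 494 and 269 CPM in the class II/Cd74-high cells of adult against 173 and 136 in chain-zero cells, with *Lyve1* and *Cd163* at 0 in the former, and 166 and 163 against 626 and 537 in slice 1 day. Monocyte genes had 80.7 and 173 against 7.11 and 5.06 in adult, where *Ccr2* was the one gene of 8 detected, but 332 and 303 against 562 and 801 in slice 1 day, and 293 against 134 in slice 3 weeks replicate 2. No UMI of *Cd3d*, *Nkg7* or *Klrb1c*, the genes of T and NK cells in the tables, was found in any of the 112 cells. Among the marker genes that could be tested, none of 6 of border macrophages was higher and 1 was lower, and of 7 of monocytes none was higher and 2 were lower (1.15% higher and 1.68% lower over all genes tested). These counts pool the groups, and 4 of the 6 border macrophage genes and 1 of the 7 monocyte genes differed between adult and slice 1 day in the test described last (1.03% over all genes tested). So did 1 of the 2 tested dendritic cell genes, *Fscn1*, with the larger difference in slice 1 day. That call was lost without the cell with most of its UMIs. The dendritic cell gene *Ccr7* was called higher with 40 UMIs in 2 cells, 1 of which held 90%, and the single genes tested of B cells and of other glia were not called. The part of other cell types in the results below was not tested beyond the leave-out values given beside them.

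Neutrophil genes had 10531 and 26103 CPM in the chain-zero cells of slice 1 day and 628 and 4647 in the class II/Cd74-high cells, and haemoglobin genes had 2017 against 151 in adult replicate 1 and 1990 against 73.9 in slice 1 day replicate 1. Adult replicate 1 and slice 3 weeks replicate 1 carry a study label of their own, and the other 8 libraries share another, so adult is the one group of the comparison with a library under each label. Of the cell barcodes, 218 occurred in more than 1 library, and 1 of the 112 class II/Cd74-high cells had such a barcode.

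To see which other genes differ in these cells, counts were summed over the class II/Cd74-high and over the chain-zero cells of each library and compared within libraries. The 5 libraries with at least 10 cells of each kind entered, which hold 108 of the 112 cells: both adult libraries, both slice 1 day libraries and slice 3 weeks replicate 2. The 4 genes of the rule were left out. Of 9764 genes tested with edgeR's quasi-likelihood test, 112 were higher (1.15%) and 164 lower (1.68%) in the class II/Cd74-high cells at FDR < 0.05 and a fold change over 1.5. The median gene stood at −0.23 on the log2 scale under the TMM scaling used, and the unchanged genes of a simulation stood at a median of −0.21, so log2 differences below are given relative to the median gene, while the calls are on the fitted values. DESeq2's own test called 65 higher and 5 lower. With DESeq2's size factors in edgeR the split was 173 higher and 97 lower, and with library size alone 164 and 100. All 112 higher calls held under the 3 scalings, and 95 of the 164 lower calls did. For 14 of the 112 higher genes, 1 cell held at least 50% of the UMIs over the 108 cells. Levels in this comparison are given as CPM after TMM scaling, in the order adult replicates 1 and 2, slice 1 day replicates 1 and 2, and slice 3 weeks replicate 2. A count of 3 UMIs stands for 15.4 to 45.3 CPM in the class II/Cd74-high sums.

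The other genes of the class II pathway did not pass the test. None of the 5 tested genes of peptide loading was called, although all 5 lay above the median gene, with a median of 0.50. *H2-DMa*, a chain of the H2-DM exchanger, had 613, 620, 15.9, 30.8 and 188 CPM in the class II/Cd74-high cells and 340, 375, 78.0, 40.1 and 145 CPM in chain-zero cells, a difference of 0.50 ± 0.24 (SE). It was higher in the class II/Cd74-high cells of both adult libraries and lower in both slice 1 day libraries, and the difference between these groups was not called (FDR = 0.070). *H2-DMb1* stood at 0.11 ± 0.26 and *H2-Oa*, part of the inhibitor of H2-DM, at 0.62 ± 0.40.
None of the 7 tested regulators was called, with a median of 0.29. These were the RFX subunits *Rfx5*, *Rfxap* and *Rfxank*, the NF-Y subunits *Nfya*, *Nfyb* and *Nfyc*, and *Creb1*, with 3 to 17 UMIs each over the 108 cells, so a difference was hardly detectable at this depth. *Ciita* was not tested because too few UMIs were found. Of the 8 genes that cut proteins in the endosome, 1 was called lower (1.68% lower over all genes tested) and none higher. This was *Ctsd*, the protease cathepsin D, at −0.60 ± 0.23, but the call was lost in 8 of 19 alternatives, among them DESeq2, DESeq2's size factors, the fit without the library as a block, and the fits without slice 1 day replicate 2 or slice 3 weeks replicate 2. *Ctsd* had 13426, 5832, 1208, 2146 and 8917 CPM in the class II/Cd74-high cells and 10792, 8941, 4118, 3629 and 22699 CPM in chain-zero cells, lower in 4 of 5 libraries. *Ctss*, the protease that trims the invariant chain, stood at 0.01 ± 0.23 and *Ifi30*, a thiol reductase of the lysosome, at 0.74 ± 0.21 (FDR = 0.24).

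*Cd86* and *Cd72* were the genes called among 8 tested genes of costimulation, both higher (1.15% higher over all genes tested), and the median of the 8 was 0.65. *Cd72*, a lectin-like receptor known from B cells, had 58.4, 75.5, 739, 703 and 364 CPM in the class II/Cd74-high cells and 13.05, 10.9, 374, 389 and 281 CPM in chain-zero cells. It was higher in all 5 libraries, by 1.27 ± 0.24 (FDR = 0.0012). *Cd86*, a ligand of CD28 on T cells, had 428, 287, 429, 313 and 125 CPM against 309, 273, 159, 129 and 129 CPM, which is 0.97 ± 0.21 (FDR = 0.028). The groups differ by library: *Cd86* was clearly apart in slice 1 day and level in slice 3 weeks replicate 2, and the call was lost in 7 of 19 alternatives, among them DESeq2, the fit without the library as a block, the fit without the cell with most of its UMIs, and the fits without either slice 1 day library. *Cd40* and *Cd80* had 4 and 1 UMIs in the 108 cells.

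MHC class I genes, which present peptides to CD8+ T cells, lay above the median gene in 16 of 18 tested, with a median of 0.34, and 1 passed the test (1.15% higher over all genes tested). *H2-K1*, a class I heavy chain, had 1041, 453, 509, 359 and 865 CPM in the class II/Cd74-high cells and 393, 246, 318, 225 and 464 CPM in chain-zero cells. It was higher in all 5 libraries, by 1.15 ± 0.20 (FDR = 0.00071). The call was lost without the library as a block and without cells with markers of other cell types. *B2m*, the light chain of class I, had 7725, 4095, 4847, 4153 and 9833 CPM against 4155, 2972, 3482, 2682 and 4846 CPM and just missed the threshold (0.93 ± 0.22, FDR = 0.052), as did *H2-D1* (0.89 ± 0.21, FDR = 0.055) and the peptide transporter subunit *Tap1* (1.23 ± 0.32, FDR = 0.058). Reads of class I heavy chains can be shared among near-identical copies, so the split among *H2-K1*, *H2-D1* and the H2-Q genes is uncertain.

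Interferon-γ is the classical inducer of class II. None of the 8 tested genes of its receptor and signalling was called (median 0.03), and none of 8 tested targets (median 0.64), among them *Gbp2* with 10 UMIs in the 108 cells. *Cxcl9*, *Ido1* and 3 other targets had too few UMIs to be tested. Of 20 genes induced by type I interferon, 5 were called higher and none lower (1.15% higher over all genes tested), with a median of 0.99: *Isg15*, *Ifit1*, *Ifit2*, *Ifit3* and *Ifi204*. *Isg15*, a ubiquitin-like protein, had 165, 0, 437, 246 and 25.1 CPM in the class II/Cd74-high cells and 35.7, 15.7, 72.3, 133 and 35.9 CPM in chain-zero cells, higher in 3 of 5 libraries (1.73 ± 0.26, FDR = 2.7e-06). These UMIs lay in few cells. *Isg15* was found in 18 of the 108 cells, and 84.4% of the *Ifit1* UMIs lay in 1 cell of slice 1 day replicate 1. None of the 5 genes was called once the cell with the most UMIs of each gene was left out.

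Genes that respond to low oxygen made up 21 of the 112 higher calls. Of 32 such genes, 21 were called higher and none lower, against 1.15% higher over all genes tested, and all 32 lay above the median gene, with a median of 1.26. This list was written after the values were seen, so its count is a description. Under low oxygen the transcription factor HIF escapes breakdown and raises genes of glycolysis, glucose uptake and oxygen sensing. *Ero1l*, an oxidase that helps to form disulfide bonds in the endoplasmic reticulum, had the largest difference among the called genes with a mean log2 CPM of 5 or more and the same direction in all 5 libraries. It had 9.73, 15.1, 302, 565 and 1091 CPM in the class II/Cd74-high cells and 5.53, 6.03, 64.5, 77.4 and 101 CPM in chain-zero cells, a difference of 2.95 ± 0.26 (FDR = 2.8e-22). In adult these were 1 UMI in each library, and in the 3 slice libraries the class II/Cd74-high cells were far above the chain-zero cells.

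*P4ha2*, an enzyme that hydroxylates collagen, had 0, 0, 215, 257 and 213 CPM against 0.432, 0.441, 15.2, 23.7 and 11.9 CPM. It was not detectable in adult at this depth and was high in all 3 slice libraries (3.94 ± 0.35, FDR = 2.8e-22). *Egln3*, a prolyl hydroxylase that marks HIF for breakdown, had 29.2, 0, 437, 226 and 489 CPM against 0.864, 0.588, 88.0, 87.3 and 80.6 CPM (2.44 ± 0.27). *Hilpda*, a protein of lipid droplets, had 19.5, 45.3, 302, 241 and 539 CPM against 15.6, 16.9, 91.0, 116 and 135 CPM (1.72 ± 0.25). *Fam162a*, a mitochondrial protein, had 58.4, 45.3, 723, 544 and 564 CPM against 31.6, 27.0, 230, 249 and 150 CPM (1.65 ± 0.23). Both lay higher in all 5 libraries, but *Hilpda* had only 2 and 3 UMIs in the class II/Cd74-high cells of adult. The glycolytic enzyme *Tpi1* had 126, 151, 2066, 1509 and 1317 CPM against 95.8, 82.0, 720, 811 and 536 CPM (1.299 ± 0.22), again higher in all 5, and *Gapdh* had 710, 438, 5118, 5042 and 7048 CPM against 471, 374, 2730, 2868 and 2087 CPM (1.12 ± 0.22). The glycolytic enzymes *Pgk1*, *Eno1*, *Gpi1* and *Pgam1*, the glucose transporter *Slc2a1*, the lactate transporter *Slc16a3* and the mitophagy receptor *Bnip3* were also called higher, with differences from 1.04 for *Eno1* to 1.84 for *Bnip3*. *Eno1* and *Slc16a3* were not called without either slice 1 day library, nor *Eno1* without slice 3 weeks replicate 2, and *Pgk1* and *Pgam1* were not called without slice 1 day replicate 1. With DESeq2 *Pgk1*, *Slc16a3* and *Slc2a1* were not called, and without the library as a block *Pgk1*, *Eno1* and *Slc16a3* were not. *Ndrg1*, *Mgarp* and *Adm* had no UMI in the class II/Cd74-high cells of adult and differed by 3.90 ± 0.44, 3.58 ± 0.45 and 3.19 ± 0.45. *Tpi1* was found in 67 of the 108 cells with at most 6.01% of its UMIs in 1 cell, *Ero1l* in 40 with at most 14.3%, and *Ndrg1* in 18 with at most 14.3%. Leaving out the cell with the most UMIs kept the calls of *Ero1l*, *Tpi1*, *P4ha2*, *Hilpda*, *Fam162a* and *Gapdh*. *Gapdh* was not called without slice 3 weeks replicate 2. When all cells with at least 2 UMIs from 1 list of markers of another immune cell type were left out, no class II/Cd74-high cell of slice 1 day remained, 11, 11 and 13 cells of the adult libraries and slice 3 weeks replicate 2 entered, and of these genes only *Ero1l* and *Egln3* were still called. This filter does not single out other cell types. It met 62.2% of the chain-zero cells of adult replicate 1 through the dendritic cell list alone, and left 0 chain-zero cells of slice 1 day replicate 2. The lost calls therefore do not show a part of other cell types.

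**Figure D4:**
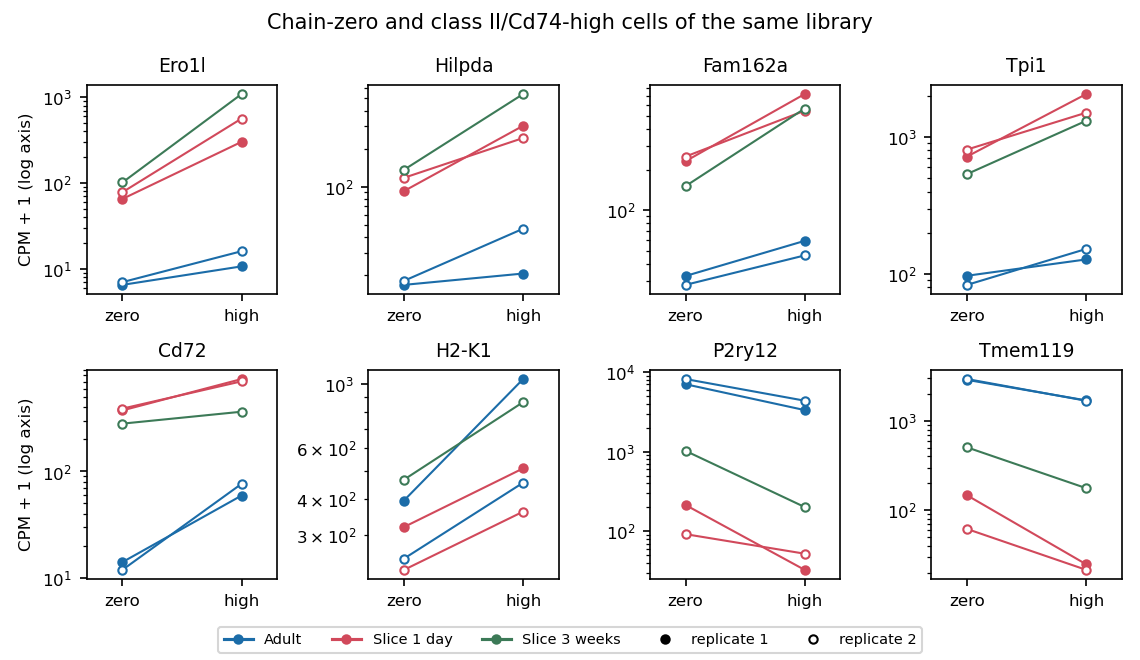
CPM + 1 (y axes, log scale) of 8 genes in the chain-zero and class II/Cd74-high cells of 5 libraries, with a line for each library. *Fam162a*, *Tpi1*, *Cd72* and *H2-K1* lie higher in the class II/Cd74-high cells of all 5 libraries, *Ero1l* and *Hilpda* do so in the 3 slice libraries and rest on at most 3 UMIs in each adult library, and *P2ry12* and *Tmem119* lie lower in all 5.

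The windows before *P4ha2* and *Fam162a* are shown because both genes were called higher and hold the letters read by HIF. They are from RefSeq (GRCm38.p6), at chr11:54100674-54100923 (plus strand) and chr16:36071562-36071811 (minus strand), 5′ to 3′ on the strand of the gene, and capitals mark ACGTG or GCGTG on either strand.
P4ha2: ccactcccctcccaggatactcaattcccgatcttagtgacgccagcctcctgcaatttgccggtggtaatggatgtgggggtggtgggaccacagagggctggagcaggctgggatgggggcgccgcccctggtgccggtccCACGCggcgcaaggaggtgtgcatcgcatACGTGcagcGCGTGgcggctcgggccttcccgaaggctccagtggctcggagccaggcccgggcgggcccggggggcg
Fam162a: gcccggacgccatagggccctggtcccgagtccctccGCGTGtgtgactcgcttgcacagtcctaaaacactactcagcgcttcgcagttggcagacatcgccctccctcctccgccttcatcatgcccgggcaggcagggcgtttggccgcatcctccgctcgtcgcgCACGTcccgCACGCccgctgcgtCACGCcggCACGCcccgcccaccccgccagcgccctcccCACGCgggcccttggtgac
*P4ha2* holds 3 matches, which begin 107, 78 and 69 bases before the start, and *Fam162a* holds 6. Of the 32 genes, 29 had a window, and 26 of these (89.7%) held a match. Among the 19 of the 21 higher genes with a window, 16 (84.2%) did, and over 27025 genes 41.5% did. Within the list the share was not larger among the higher genes, so a match did not go with a call. A match does not show binding, and the list was chosen after its values were seen.

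Genes of the response to misfolded proteins in the endoplasmic reticulum were also called, in part through few cells. Of 17, 5 were higher and none lower (1.15% higher over all genes tested), with a median of 0.85: *Herpud1*, *Creld2*, *Derl3*, *Pdia4* and *Trib3*. *Derl3*, *Pdia4* and *Trib3* were not called without slice 1 day replicate 2, nor *Pdia4* and *Trib3* without the cell with most of their UMIs. With DESeq2 or without the library as a block *Pdia4*, *Herpud1* and *Creld2* were not called. This list too was written after the values were seen. *Herpud1*, which helps to clear misfolded proteins, had 185, 151, 111, 637 and 138 CPM in the class II/Cd74-high cells and 236, 255, 55.3, 58.4 and 107 CPM in chain-zero cells (1.15 ± 0.24, FDR = 0.010). It was lower in adult and far higher in slice 1 day replicate 2, and 33.1% of its UMIs lay in 1 cell. Neither *Herpud1* nor *Creld2* was called without either slice 1 day library or without the cell with most of its UMIs.

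Further higher genes of the rule for named genes had roles in lipid handling, the cytoskeleton and survival. *Lpl*, the lipoprotein lipase, had 126, 559, 4593, 3743 and 2220 CPM in the class II/Cd74-high cells and 17.02, 24.7, 2940, 3266 and 1436 CPM in chain-zero cells (1.68 ± 0.24, FDR = 4.2e-07). It was higher in all 5 libraries, but not called with DESeq2, without the library as a block or among cells with a chain UMI. *Vim*, the filament protein vimentin, had 19.5, 15.1, 445, 503 and 464 CPM against 1.12, 1.62, 399, 360 and 87.0 CPM (1.304 ± 0.26), where the adult values are 2 UMIs or fewer. *Srgn*, the core protein of granule proteoglycans, had 399, 272, 858, 1191 and 2044 CPM against 198, 192, 726, 680 and 385 CPM (1.25 ± 0.21). Without slice 3 weeks replicate 2 or the library as a block neither *Vim* nor *Srgn* was called, and *Vim* was not called with DESeq2 or without the cell with most of its UMIs. *Bcl2a1a*, which protects cells from apoptosis and shares reads with near-identical copies, differed by 1.303 ± 0.26, the mitochondrial protease *Lonp1* by 1.53 ± 0.34, *Pafah1b3*, a subunit of an enzyme that breaks down platelet-activating factor, by 1.36 ± 0.29, and the antiviral protein *Zc3hav1* by 1.24 ± 0.28. *Lonp1*, *Pafah1b3* and *Zc3hav1* were not called without either slice 1 day library or without the cell with most of their UMIs. Among cells with a chain UMI *Bcl2a1a*, *Lonp1* and *Zc3hav1* were not called.

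Of 18 genes of disease-associated microglia, *Lpl* and *Lgals3* were higher and *Fabp5* was lower, with a median of 0.18, against 1.15% higher and 1.68% lower over all genes tested. The median of the 18 was 1.22 in adult and 0.106 in slice 1 day. In the test described last 4 of them were called, all with the larger difference in adult (0.631% over all genes tested). *Lgals3*, galectin-3, had 29.2, 0, 2122, 3414 and 3900 CPM against 3.89, 3.67, 1982, 1575 and 952 CPM (1.40 ± 0.27, FDR = 0.0011), and it was not called with DESeq2, without the library as a block or without slice 3 weeks replicate 2. *Fabp5*, a carrier of fatty acids, was lower by −0.87 ± 0.27, a call lost in 6 of 19 alternatives, among them DESeq2 and the fit without slice 1 day replicate 2. Of 12 tested chemokines and cytokines, *Ccl5*, *Cxcl10* and *Cxcl16* were called, all higher (1.15% over all genes tested), with a median of 0.16. *Ccl5*, a T cell attractant, had 642, 15.1, 3822, 1504 and 0 CPM against 64.6, 2.35, 429, 265 and 38.0 CPM (2.81 ± 0.26, FDR = 1.6e-20). It was found in 17 of the 108 cells and was absent from those of slice 3 weeks replicate 2. It was not called with DESeq2 or without the library as a block. *Cxcl10* rested on 1 cell with 82.3% of its UMIs. *Cxcl16*, which binds CXCR6 on T cells, had 331, 151, 524, 416 and 163 CPM against 83.4, 70.8, 236, 220 and 191 CPM (1.27 ± 0.22) and was found in 52 cells. Its call was lost among cells with a chain UMI and without cells with markers of other cell types. None of 13 genes of proliferation was called (median −0.64), but the groups ran apart. The median of these genes was 3.17 in adult and −1.10 in slice 1 day. In the test described last 4 of the 13 were called, all with the larger difference in adult (0.631% over all genes tested). Of 9 immediate early genes, *Fos* was higher and *Ier2* lower (median 0.32), against 1.15% higher and 1.68% lower over all genes tested. The call of *Ier2* was lost in 18 of 19 alternatives and that of *Fos* in 4, among them the fit without the cell with most of its UMIs.

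Homeostatic microglia genes were lower. Of 17, 10 were called lower and none higher, against 1.68% lower over all genes tested, with a median of −0.54, and 7 of the 10 were called under all 3 scalings, but with DESeq2 only *P2ry12* and *Gpr34* were. *P2ry12* had 3327, 4367, 31.8, 51.3 and 201 CPM in the class II/Cd74-high cells and 7030, 8167, 213, 91.1 and 1023 CPM in chain-zero cells. It was lower in all 5 libraries, by −1.18 ± 0.25 (FDR = 1.7e-06). *Tmem119*, a membrane protein of microglia, had 1693, 1677, 23.8, 20.5 and 176 CPM against 2875, 2937, 146, 60.7 and 504 CPM (−0.95 ± 0.24). The purinergic and lipid receptors *P2ry13* and *Gpr34* differed by −0.96 ± 0.25 and −0.88 ± 0.23, and *Olfml3*, *Slc2a5* and *Ltc4s* by −0.65, −0.92 and −0.74. Of the 3 scalings, *Selplg* and *Fcrls* were called only with TMM (−0.54 ± 0.23 and −0.49 ± 0.21), and *Crybb1* was not called with DESeq2's size factors. *Cx3cr1* (−0.41 ± 0.21), *Csf1r* (−0.27 ± 0.21), *Siglech* and *Sall1* were not called. The summed microglia genes given above, which include *P2ry12*, *Tmem119* and *Fcrls*, were also lower in all 5 libraries. In adult the summed border macrophage genes were higher. *P2ry12*, *Tmem119* and *Gpr34* were called lower also when the 11 cells with 1% or more class II/Cd74 UMIs were left out.

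Neutrophil and haemoglobin genes were among the largest falls. All 6 tested neutrophil genes and all 4 haemoglobin genes were lower (1.68% lower over all genes tested). With DESeq2 the direction turned for *S100a9* (0.23), *Hbb-bs* (3.98) and *Retnlg* (4.82), and without neutrophil and haemoglobin cells for *Retnlg* (0.27). *S100a8*, a calcium-binding protein of neutrophils, had 0, 0, 342, 2413 and 0 CPM in the class II/Cd74-high cells and 4.32, 0.147, 7900, 15583 and 0.879 CPM in chain-zero cells (−3.31 ± 0.38). Its level was far higher in the slice 1 day libraries than in the others, and chain-zero cells there include cells with at least 2% neutrophil UMIs. Neither *S100a8* nor *Hspa1a* was called after the cells with at least 2% neutrophil or 1% haemoglobin UMIs were left out. Every chain-zero and class II/Cd74-high cell of slice 1 day replicate 2 held neutrophil UMIs, and the cause of the fall was not tested. *Hspa1a*, a heat shock protein with a near-identical copy, had 0, 0, 7.95, 10.3 and 0 CPM against 22.9, 0.294, 255, 11.6 and 1.41 CPM (−3.24 ± 0.70). The counts of higher and lower genes were then 119 and 102.

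The other falls of the rule for named genes were of low abundance. *Il17ra*, a receptor chain of interleukin 17, had 77.8, 15.1, 7.95, 15.4 and 12.5 CPM against 97.5, 89.7, 84.1, 68.5 and 34.2 CPM (−1.38 ± 0.38, FDR = 0.0021), with 14 UMIs in the class II/Cd74-high cells. Neither *Il17ra* nor *Ccr1* was called with DESeq2 or without either slice 1 day library. *Ccr1*, a chemokine receptor, differed by −1.27 ± 0.37, *Tnfrsf13b*, a receptor of the TNF family, by −1.18 ± 0.35 and *Mrpl41*, a protein of the mitochondrial ribosome, by −1.19 ± 0.36, where the calls of *Tnfrsf13b* and *Mrpl41* were lost with DESeq2 and without slice 1 day replicate 2. The calls of *2700062C07Rik* (−1.56), *Sept9* (−1.31), the RNA sensor *Tlr7* (−1.295), *Impa1* (−1.20) and *Snx24* (−1.18) were lost with DESeq2's size factors and with library size alone, and these genes had 6 to 13 UMIs in the class II/Cd74-high cells.

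The difference between class II/Cd74-high and chain-zero cells was not the same in adult and in slice 1 day. These are the groups with 2 libraries in the comparison. Of 9512 genes tested for a difference of the differences, 98 were called at FDR < 0.05 (1.03%), 38 with the larger difference in slice 1 day (0.399%) and 60 with the larger in adult (0.631%), and in 84 the signs were opposite. The count was 27 with DESeq2, 63 with the cells under 1% alone and 56 to 78 with 1 library left out. The genes below are the 5 with the lowest p among the more abundant ones. Fitted differences of the differences are not relative to the median gene, while values of a single group are unless marked. *Lyz2* had 3308 and 2992 CPM in the class II/Cd74-high cells of adult against 391 and 387 CPM in chain-zero cells, and 222 and 683 CPM against 1631 and 2247 CPM in slice 1 day. It was thus higher in both adult libraries (3.26) and lower in both slice 1 day libraries (−1.94), without overlap. *Ifitm3*, an antiviral membrane protein, had 477 and 136 CPM against 49.0 and 25.1 CPM in adult, and 254 and 216 CPM against 477 and 378 CPM in slice 1 day. *Ifi27l2a*, an interferon-induced gene, had 214 and 212 CPM against 40.4 and 14.99 CPM in adult, and 23.8 and 20.5 CPM against 201 and 124 CPM in slice 1 day. Both genes were again higher in each adult library and lower in each slice 1 day library.

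*Ccl12*, a monocyte attractant, had 3298 and 227 CPM against 254 and 215 CPM in adult, so that its adult difference lay in replicate 1, and 135 and 1366 CPM against 1366 and 2363 CPM in slice 1 day. *Pf4* had 107 and 15.1 CPM against 4.06 and 1.32 CPM in adult, and 39.7 and 46.2 CPM against 373 and 316 CPM in slice 1 day. Without adult replicate 1 neither was called, where the fitted difference of the differences was −1.62 for *Ccl12* (−3.94 with it) and −6.23 for *Pf4* (−7.32 with it), and *Ccl12* was not called with DESeq2 (−3.95). *Apoe* moved as *Lyz2* did, with 13932 and 2418 CPM against 810 and 678 CPM in adult, and 3322 and 4164 CPM against 9224 and 7842 CPM in slice 1 day. *Lyz2* and *Apoe* were called in every alternative in which the comparison could be made. The adult cells at 4% or more, with their high *Lyz2*, *Apoe* and *Ccr2*, hold part of these values. Without the cells at 1% or more the fitted difference of the differences (slice 1 day minus adult) moved from −5.05 to −3.46 for *Lyz2* and from −4.03 to −2.21 for *Apoe*, both still called, and *Pf4* turned to 3.14 and was not called. Microglia, border macrophage and monocyte genes in both kinds of cell are given above for adult and slice 1 day, and their part in these differences was not tested.

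A few hypoxia genes and some misfolded protein genes differed the other way. Of the 32 hypoxia genes 4 were called, and of the 17 genes of the endoplasmic reticulum 8, all with the larger difference in slice 1 day (0.399% over all genes tested). Each of the 8 differed more in slice 1 day replicate 2 than in replicate 1, for example *Hspa5*, a chaperone, at 0.012 in replicate 1 and 2.55 in replicate 2 (log2, not relative to the median gene). Without replicate 2 the fitted difference of the differences of *Creld2* was 0.64 against 2.16 and that of *Hspa5* −0.012 against 1.52. *Herpud1* stood at −0.28 in adult and 2.85 in slice 1 day, *Bnip3* at 0.59 and 2.14, and *Slc16a3* at −0.58 and 1.71. The call of *Bnip3* was lost in 11 of 14 alternatives, without any 1 of the 4 libraries among them, and that of *Slc16a3* with DESeq2, without adult replicate 1 and without slice 1 day replicate 1. Without slice 1 day replicate 2 *Herpud1* was not called, and its fitted difference of the differences was 1.51 against 3.28. The homeostatic genes held no called gene among 17, and *P2ry12* stood at −0.75 in adult and −1.37 in slice 1 day (FDR = 0.93), which does not show that they act alike.

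**Figure D5:**
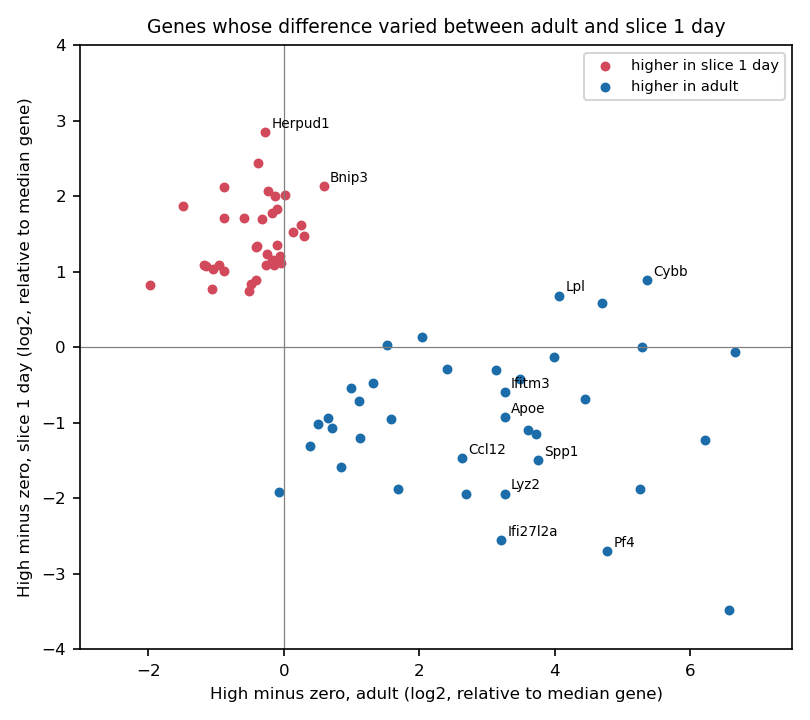
Difference between class II/Cd74-high and chain-zero cells (log2, relative to the median gene) in adult (x axis) and slice 1 day (y axis) for the 76 called genes of higher abundance (mean log2 CPM from 5 upwards), 3 of which lie outside the axes. *Lyz2*, *Ifi27l2a* and *Pf4* lie at the lower right, higher in adult and lower in slice 1 day, and *Herpud1* and *Bnip3* at the top.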

How the data were processed

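Deposited tables of UMI counts per gene and cell from 10 libraries were used (5 groups, 2 libraries each, which the submitters call biological replicates). Per the labels, the authors made these counts with Cell Ranger 1.3.0 and mm10. The members and gene lists were chosen with earlier results of these data known, and the hypoxia, endoplasmic reticulum and haemoglobin lists after values were seen. Of the lists, 1 gene is not reported here. No column belonged to another series.

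Cells over the limits (578 of 19637) were left out. No doublet caller was run. Counts were summed per library and kind of cell where each kind had at least 10 cells. Genes that passed edgeR's filterByExpr (minimum count 10) were tested with edgeR 4.0.16 (R 4.3.3), TMM scaling and quasi-likelihood F-tests, with the library as a block. A difference of the differences used an interaction term in the 4 adult and slice 1 day libraries. FDR is the Benjamini-Hochberg adjusted p. Named genes are the listed genes and the 12 largest rises and 12 largest falls among the called genes whose mean log2 CPM reached 5 and whose direction was the same in all 5 libraries, and the 5 lowest p for the difference. DESeq2 1.42.0 was an alternative. Sums and shares were computed in Python 3.11.15 with numpy 2.4.6, pandas 2.3.3 and scipy 1.17.1. On simulated data, 100 of 100 genes changed 4-fold, 57 of 100 changed 2-fold and 14 of 9064 unchanged genes were called among 9764. Gene places are from GENCODE M21. With 2 libraries against 2 no exact test of shares could go below p = 0.333, so none is given.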

Additional observations from a re-analysis of the deposited data

Results flagged for a closer look

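The difference between class II/Cd74-high and chain-zero cells was tested for a difference between slice 1 day and adult, and 98 genes were called (27 with DESeq2, and 56 to 78 with 1 library left out). The 5 named genes were each called by this test. Slice 1 day minus adult was −5.05 for *Lyz2*, −3.94 for *Ccl12*, −5.61 for *Ifi27l2a*, −3.70 for *Ifitm3* and −7.32 for *Pf4* (log2, not relative to the median gene). All 5 were thus higher in the class II/Cd74-high cells of adult than in those of slice 1 day, relative to chain-zero cells.

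Among the 578 cells outside the limits, which no comparison used, 3 met the class II rule, 1 in adult replicate 1 and 2 in slice 3 weeks replicate 1, and all 3 had more than 5% mitochondrial UMIs.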

How the results depend on the processing

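The share of class II/Cd74-high cells depended on the threshold. In adult it was 1.26% at a threshold of 0.1% of UMIs, 0.314% at 0.4%, 0.122% at 1%, 0.598% with at least 5 UMIs, 0.177% without *Cd74*, 0.429% with a chain UMI required and 1.06% after thinning. In slice 1 day it was 7.75% at 0.1%, 0.438% at 0.4%, 0.0965% at 1% and also without *Cd74*, 1.90% with a chain UMI and 5.04% after thinning. In slice 3 weeks it was 1.85%, 0.0668% and 0.0134% at 0.1%, 0.4% and 1%, 0.0535% without *Cd74* and 0.959% after thinning. *In vitro* it was 0.265% at 0.1% and 0.163% after thinning, and in slice 1 week 1.98% and 0.355%. The order of slice 1 day above adult turned at 1% and without *Cd74*. The 1% threshold and the required chain UMI were chosen after seeing the data.

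The 112 higher, 164 lower and 98 differing genes became 65, 5 and 27 with DESeq2, 173 higher and 97 lower with DESeq2's size factors, 100 lower with library size alone, 69 differing with no filter, 12 and 14 without cells with markers of other types, 109 lower when compared cells also lacked *Cd74*, 63 differing with the cells under 1%, 102 lower without neutrophil and haemoglobin cells, and 73 higher and 103 lower without the top cell of each gene. The last 3 were chosen after seeing the data. Leaving out 1 library gave 74 to 131 higher, 61 to 161 lower and 56 to 78 differing genes, the lowest without slice 1 day replicate 2 for higher and lower genes. Without the replicate block, that is without the library as a block, 61 were higher and 65 lower, all among the genes called with it.

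For named genes, 1254 results kept their call, 381 lost it and 12 turned: *Zc3hav1* (−0.20), *Herpud1* (−1.10), *Creld2* (−0.46) and *Cxcl10* (−0.74) without cells with markers of other types, *Cxcl10* (−2.58) and *Ifit2* (−0.42) without the top cell, *S100a9* (0.23), *Hbb-bs* (3.98) and *Retnlg* (4.82) with DESeq2, *Retnlg* (0.27) without neutrophil and haemoglobin cells, and, for slice 1 day minus adult, *Pf4* (3.14) with the cells under 1% and *Hspa5*, which ran from −0.012 without slice 1 day replicate 2 to 2.38 without replicate 1. The cause was not tested. A minimum of 30 cells per kind was not run because no library had 30 class II/Cd74-high cells. Genes with fewer than 3 UMIs in the class II/Cd74-high cells of a library are below what this depth can show.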
